A study of Rattus norvegicus with 20 samples.

Results

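The cytosolic ribosomal protein genes encode the proteins of the ribosomes that translate nuclear messenger RNA. They were taken from the array by symbol: every gene whose single symbol is Rpl or Rps followed by a digit, together with Rplp0, Rplp1, Rplp2 and Rpsa, leaving out kinases of the Rps6k group and symbols that mark pseudogenes (-ps) or end in -like or l. Copies whose symbol ends in l1 stayed in. The rule found 46 of the 14217 genes with a symbol on the array, 32 of the large subunit and 14 of the small subunit. Each gene was represented by its probe set with the highest mean over the 20 arrays. Of the 46 genes, 42 were bright enough to be tested, 29 of the large subunit and 13 of the small. Another 36 probe sets carried several symbols, 1 of them that of a ribosomal protein, and were no members, so that Rplp1, Rps27a and Rps4x have no value of their own here.

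A ribosome is built from 1 copy of nearly every ribosomal protein on a scaffold of ribosomal RNA, so cells need these proteins in matched amounts. Their messenger RNAs are among the most abundant in the cell, and many start with a cytosine followed by an unbroken run of pyrimidines, the TOP motif, through which mTORC1 signalling and the protein LARP1 set how well they are translated. In neurons, ribosomal protein messengers are found in the cell body and in processes, and local translation takes part in synaptic plasticity.

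The tissue was the amygdala's central nucleus, dissected from rats of the alcohol-preferring (P) line, which was selected for high voluntary drinking. During adolescence 10 of these rats had access to solutions of 15% and 30% ethanol, and 10 others received water only. All animals were of the P line, with 1 array of total RNA per animal, so a strain without the preference was not part of the comparison. The comparison asks whether adolescent drinking goes with another level of ribosomal protein messengers in this nucleus, and the spread among animals asks whether those messengers vary together.

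The array medians lay between log2 7.92 and 7.96. The accession order falls into 3 runs, the first and second with 4 arrays per group and the last with 2, and no label names them as a batch. Genes expressed in the nucleus were present. Gad1, the GABA-producing enzyme, lay between 14.04 and 14.44, and Penk (preproenkephalin) between 13.48 and 14.94. Prkcd, a marker of central amygdala neurons, lay between 8.65 and 10.37, Isl1 between 7.56 and 9.69 and Dlk1 between 8.09 and 9.08. The 13 tested central amygdala markers averaged 10.96 to 11.74 in ethanol and 10.63 to 11.70 in water animals. Striatal neuron markers, which also hold Penk, averaged 10.10 to 11.33 and 10.22 to 11.16. These levels do not set the nucleus apart from striatum. Markers of cortical and basolateral excitatory neurons (8 of 10 listed genes on the array, 7 of them above the filter described below) averaged 8.01 to 10.04 in ethanol animals and 7.97 to 10.05 in water animals. Ethanol animal 5 and water animals 15 and 18 correlated least with the other arrays, and results that they move most are given without them too.

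The annotated start sites show what many members share apart from their symbols. Promoter sequences of RefSeq assembly GRCr8 were matched for 41 of the 46 members, 39 by gene identifier and 2 by symbol. A C within 5 bases of the annotated start and followed by at least 4 C or T, read on the gene's strand, was found in 22 of 41 members (53.7%) and in 4656 of 27457 genes in the same table (16.96%). The following 30-base windows have 15 bases before the start, and the 16th base is the annotated start. Capitals mark the stretch from the first such C to the end of the pyrimidines, and in Rpl22, Rps24 and Rpl12 pyrimidines also stand directly before it. Shown first are 6 members with the run to which the values below return, followed by 3 without it.
Rpl22 (chr5:168117946-168117975, plus strand): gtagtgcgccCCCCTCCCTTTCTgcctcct
Rps24 (chr16:96502-96531, plus strand): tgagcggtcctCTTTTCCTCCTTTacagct
Rps28 (chr7:15311319-15311348, minus strand): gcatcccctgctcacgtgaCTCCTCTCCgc
Rpl12 (chr3:36661925-36661954, plus strand): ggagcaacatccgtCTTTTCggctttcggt
Rpl19 (chr10:83519049-83519078, plus strand): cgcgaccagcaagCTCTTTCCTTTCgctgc
Rplp0 (chr12:46718376-46718405, minus strand): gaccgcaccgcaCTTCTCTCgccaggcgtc
Rpl11 (chr5:153560788-153560817, minus strand): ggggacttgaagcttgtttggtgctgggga
Rpl13a (chr1:104748899-104748928, minus strand): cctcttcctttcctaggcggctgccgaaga
Rpl3 (chr7:113507976-113508005, minus strand): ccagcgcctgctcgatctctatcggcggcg

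In these windows the capitals cover the start base of Rpl22, Rps24, Rpl12, Rpl19 and Rplp0, and begin after it in Rps28. Runs of pyrimidines also stand before the start of Rpl13a, outside the searched positions, which shows how far the count depends on the annotated base. In the 300 bases around the start, searched on both strands, GGGCGG (a GC box) was in 61.0% of the 41 members and 34.9% of all genes, and CCGGAAG (a core of Ets factor sites) in 24.4% against 9.22%. AAGATGG, a core of the YY1 motif, was in 19.5% against 7.30%, and TATAAA in 12.2% against 14.3%. CCGGAAG and AAGATGG can overlap by their shared AAG, and a match describes the letters only. The members lie on 15 chromosomes of the reference table, which had no entry for the identifiers of Rpl37a and Rps9.

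The members were among the brightest probe sets of the array. In 38 of the 42 tested members the mean was above log2 12, and in 33 it was above the 99th percentile of all probe sets (13.56) on a scale that ended at 16.16. The others were Rpl7l1 and Rpl26l1, both related copies of canonical genes, Rps4y2 and Rpl39. Below the filter of log2 7.14 were Rpl28 (mean 5.79), Rpl30 (4.87), Rpl39l1 (5.40), a related copy of Rpl39, and Rps13 (6.42), for which no test was made. Each of these values comes from a single probe set, and whether it measures the gene's main messenger was not tested. In these 4 genes the ethanol and water ranges overlapped.

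Ethanol and water animals differed little in these genes. At an adjusted p under 0.05 limma called 0 of 42 members, where 0.0215% of all 18625 tested probe sets were called (4 probe sets). At an unadjusted p under 0.05 it found 2 members, Rpl22 and Rps28, both lower with ethanol (4.76%), against a background of 5.48% lower, 7.37% higher and 12.8% in either direction. The share of members at that level was below the background, and no member had groups that did not overlap (background 0.0268%). The mean was lower with ethanol in 31 of 42 members, 73.8%, against 42.2% of all probe sets. Within the 3 runs it was 25, 34 and 22 of 42 members (59.5%, 81.0% and 52.4%, against 47.8%, 39.7% and 48.6% of all). Leaving out water animal 15 gave 38 members, water animal 18 gave 29 and water animal 14 gave 28. Members move together among animals, as described further on, so these 31 genes are not 31 separate observations.

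The sizes of the differences were small and their intervals narrow. The median log2 difference of the members was -0.022, with quartiles of -0.033 and -0.00058, against a median of 0.016 over all tested probe sets. All 42 differences lay between -0.098 and 0.074, and their 95% confidence intervals together spanned -0.23 to 0.18. The median SE was 0.040, against 0.062 for all tested probe sets. Large and small subunit genes had the same median of -0.022, with 22 of 29 and 9 of 13 members lower. The smallest adjusted p of any member under limma was 0.344, and over all 33 alternatives tried it was 0.211, reached by Rpl22 when water animal 20 was left out.

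**Figure D1:**
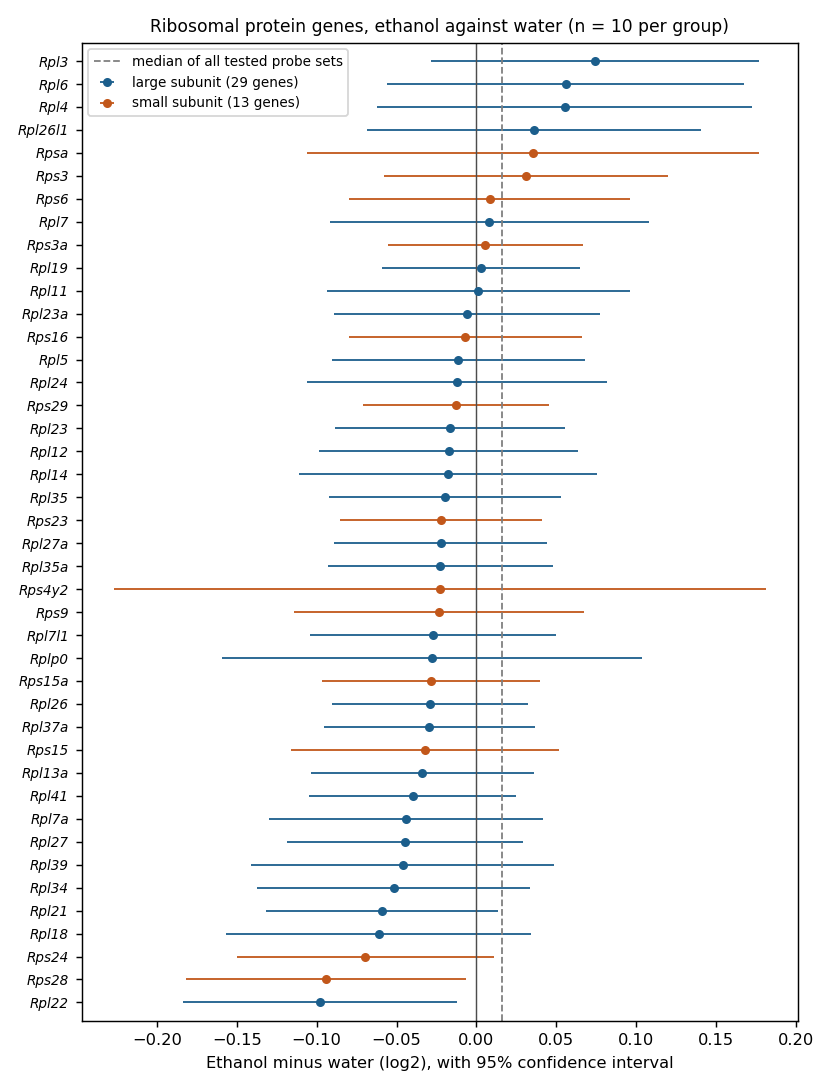
Each point is the ethanol minus water difference in mean log2 value of 1 ribosomal protein gene (horizontal axis), with its 95% confidence interval from limma (n = 10 per group), ordered by size and coloured by subunit. The points lie between -0.098 and 0.074, 31 of 42 are below 0, and the dashed line at 0.016 is the median of all tested probe sets.

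Among large subunit genes, Rpl22 had the largest difference. Its product lies on the surface of the large subunit, and mice can live without it. The value ranged from 13.17 to 13.34 with a median of 13.24 in ethanol animals, and from 13.20 to 13.49 with a median of 13.35 in water animals. The groups overlapped, although 10 of 10 ethanol animals were below the water mean. The log2 difference was -0.098 (SE 0.041, limma adjusted p = 0.344), a percent difference of -6.57. It was -0.14 and -0.11 in the first and second runs and 0.0062 in the last, which holds 2 animals per group. With array quality weights it was -0.058.

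Among large subunit genes with a lower ethanol mean, Rpl18 and Rpl21 came after Rpl22 in size. Rpl21 lay between 13.62 and 13.78 (median 13.70) in ethanol animals and between 13.61 and 13.86 (median 13.77) in water animals, a difference of -0.059 (SE 0.035, limma adjusted p = 0.467). Rpl18 lay between 13.06 and 13.27 (median 13.11) against 13.04 to 13.41 (median 13.19), a difference of -0.061 (SE 0.046, limma adjusted p = 0.570), and -0.038 without water animal 18. In both genes the lowest animal was a water animal, and in Rpl21 9 of 10 ethanol animals were below the water mean. Rpl41, which encodes the smallest protein of the ribosome, differed by -0.040 (SE 0.031, limma adjusted p = 0.587), with 8 of 10 ethanol animals below the water mean.

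Rpl7a, a core protein of the large subunit, had an unusual distribution, singled out after its values were seen. In ethanol animals it lay between 14.05 and 14.11, all 10 below the water mean of 14.13, and in water animals between 13.91 and 14.35. The ethanol SD was 0.022 and the water SD 0.12, and the ethanol values fell inside the water range. Both ends of that range came from arrays that correlated least, water animal 15 (lowest) and water animal 18 (highest). The remaining water animals lay between 14.06 and 14.22. The difference of -0.044 (SE 0.041) had a limma adjusted p of 0.656.

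Among small subunit genes, Rps28, whose product sits near the messenger's exit from the small subunit, was 13.65 to 13.88 with a median of 13.77 in ethanol animals and 13.76 to 14.03 with a median of 13.85 in water animals. The upper part of the water range was empty of ethanol animals, and 9 of 10 ethanol animals were below the water mean. The log2 difference was -0.094 (SE 0.042, limma adjusted p = 0.368), and it was -0.15, -0.071 and -0.037 in the 3 runs. Rps24, one of the genes mutated in Diamond-Blackfan anaemia, was 14.29 to 14.46 (median 14.42) against 14.34 to 14.62 (median 14.45), a difference of -0.070 (SE 0.039, limma adjusted p = 0.439). The ranges of Rps24 overlapped, with 10 of 10 ethanol animals below the water mean, and its second, dimmer probe set differed by 0.047.

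The members with a higher ethanol mean were led by Rpl3, which reaches towards the peptidyl transferase centre. It lay between 14.50 and 14.78 (median 14.71) in ethanol animals and between 14.30 and 14.71 (median 14.62) in water animals, a difference of 0.074 (SE 0.049, limma adjusted p = 0.517). Rpl6 differed by 0.056 (SE 0.054) and Rpl4, which lines the exit tunnel for the new protein chain, by 0.055 (SE 0.056). Rpsa, also known as the laminin receptor, differed by 0.035 (SE 0.068), and Rps3, at the messenger's entry site, by 0.031 (SE 0.043). None of these differences passed limma's threshold of an adjusted p under 0.05. Each rested in part on 1 array, water animal 15, which had the lowest value of all animals in these 5 genes. Without it the differences were 0.042 for Rpl3, 0.018 for Rpl6, 0.0063 for Rpl4, -0.0030 for Rps3 and -0.027 for Rpsa. The dim copy Rpl26l1 differed by 0.036 (SE 0.050), from 7.61 to 8.05 in ethanol and from 7.72 to 8.02 in water animals.

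Several other members are known for further roles or uses. Rpl5 and Rpl11, which bind 5S ribosomal RNA and can inhibit Mdm2, differed by -0.011 (SE 0.038) and 0.0013 (SE 0.046). Rps6, the substrate of the S6 kinases, lay between 14.21 and 14.38 in ethanol and between 14.04 and 14.39 in water animals, a difference of 0.0083 (SE 0.042). Rpl13a and Rplp0 are in common use as reference genes for quantitative PCR. Rpl13a differed by -0.034 (SE 0.034) with a within-group SD of 0.060, while Rplp0 differed by -0.028 (SE 0.063) with a within-group SD of 0.14, the third highest of the members. The Rplp0 difference was -0.077 without water animal 15 and -0.00038 without water animal 18.

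Further probe sets of a member did not always follow the chosen one. For Rpl7 the chosen probe set differed by 0.0081 and the other by -0.13 (SE 0.076, limma adjusted p = 0.461), and the pair had an r of -0.49 over the 20 animals with group means removed. For Rpsa the further 2 probe sets differed by 0.014 and -0.047, both with an r of 0.70 to the chosen one. In all, 6 members had further probe sets, and those of Rpl7, Rpl7l1, Rps24 and 1 of Rpsa had the opposite sign. The 35 tested probe sets with several symbols had a median difference of -0.014, with 24 lower, 11 higher and 0 called by limma (0 also at an unadjusted p under 0.05). The lower share was 68.6%, against 42.2% of all probe sets.

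The mean of the 42 members, each centred on its own mean over all arrays, summarises an animal's level on the log2 scale. It ran from -0.077 to 0.048 in ethanol animals (median -0.011) and from -0.094 to 0.11 in water animals (median 0.012). The ethanol range lay inside the water range. The group means were -0.0088 ± 0.044 and 0.0088 ± 0.064 (SD, n = 10 per group), a difference of -0.018, and the differences within the 3 runs were -0.0086, -0.040 and 0.0095. Leaving out water animal 14 gave -0.0061 and leaving out water animal 15 gave -0.029.

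Single animals stood out across nearly all genes. In water animal 14, 42 of 42 members were above the water mean, while in water animal 20 only 1 was. In ethanol animals 8 and 9 only 4 members each were above the ethanol mean, and in ethanol animal 7, 39 were. The 4 animals of the last run all had low values, from -0.070 to -0.023, and the mean of that run was -0.046 against 0.00079 and 0.022 in the first and second.

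**Figure D2:**
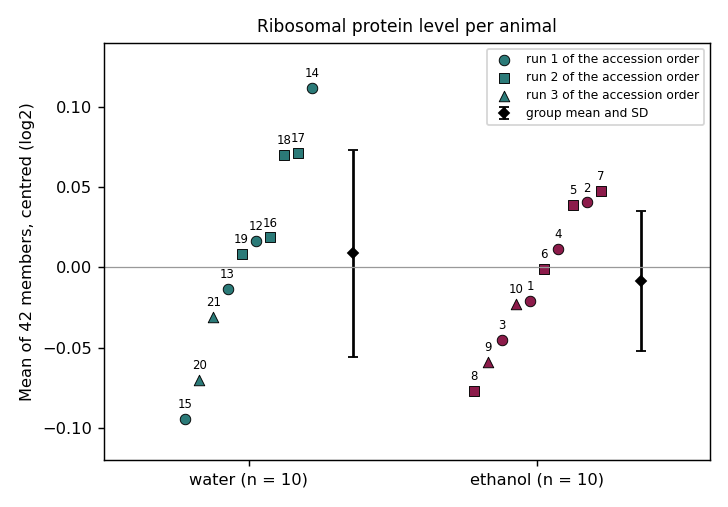
Each symbol is 1 animal, labelled with its number, and the vertical axis is the mean of 42 ribosomal protein genes after centring each gene (log2); shapes mark the 3 runs of the accession order, and diamonds with bars the group mean and SD (n = 10 per group). Ethanol animals lie between -0.077 and 0.048, inside the water range of -0.094 to 0.11, and the triangles of the last run are all below 0.

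The messengers varied together from animal to animal. With the group means removed, the 861 pairs of members had a median Pearson r of 0.465 over 20 animals (quartiles 0.21 and 0.69), and 763 pairs were positive. The same median was 0.020 for all 10159 tested genes, 0.046 for the 1010 other genes above log2 12, and 0.33 for 73 mitochondrial ribosomal protein genes, which encode the separate ribosome of the mitochondrion. The first principal component held 49.8% of the members' standardised variance, against 20.8% for all genes. These points share an array, its scaling and its dissection, and no test was made on them.

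The pattern was present in both groups. In the 10 ethanol animals the median r between members was 0.57, and in the 10 water animals 0.50. Large subunit pairs had a median of 0.48 and small subunit pairs 0.36 over all animals. With the run means also removed the median was 0.43, and with the myelin score removed 0.50. It was 0.40 without water animal 14, 0.58 without water animal 15 and 0.58 without the 3 arrays that correlated least.

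**Figure D3:**
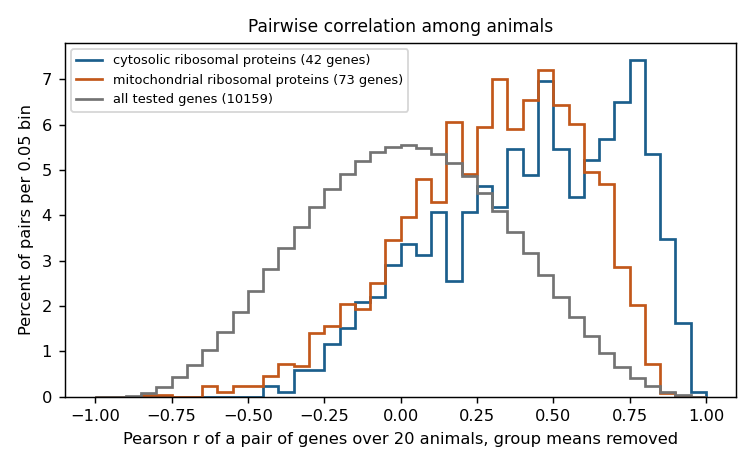
Lines show the percent of gene pairs (vertical axis) in each bin of Pearson r over 20 animals after removing group means (horizontal axis), for 42 cytosolic ribosomal protein genes, 73 mitochondrial ones and all 10159 tested genes. The median is 0.465 for the cytosolic set, 0.33 for the mitochondrial set and 0.020 for all genes.

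Each member was set against the mean of the others. The median r was 0.70, and 14 of 42 members (33.3%) exceeded 0.8, while 47 of 10117 genes outside the members (0.465%) exceeded 0.8 with the mean of all members. The closest were Rpl11 (0.94), Rpl12 of the stalk base (0.93), Rpl24 (0.92), and Rpl19 and Rps16 (0.90 each). In ethanol and water animals taken apart, the r values of these 5 lay between 0.90 and 0.95. Rpl11, shown above without a pyrimidine run at its annotated start, followed the others as closely as Rpl12 and Rpl19, which have one. Over all members with and without the run, the median r was 0.69 (20 genes) and 0.67 (18 genes), and the median ethanol difference -0.023 and -0.012.

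Among single pairs, Rpl5 and Rpl11, which form a complex with 5S ribosomal RNA, had an r of 0.92, and 0.91 without water animal 15. Rpsa and Rpl4 had the highest r of all pairs, 0.96, followed by Rplp0 and Rps3 (0.93) and by Rpl11 and Rpl12 (0.93). Leaving out water animal 15 gave 0.83, 0.83 and 0.90, and the r of Rpsa with Rps3 moved from 0.91 to 0.60. The lowest pairs were Rps4y2 with Rpl41 (-0.42) and Rpl23 with Rpl13a (-0.42), at -0.44 and -0.40 without that animal.

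A few members did not follow the rest. Rpl13a had an r of -0.0033 with the mean of the others, made up of -0.58 in ethanol animals and 0.60 in water animals; the difference between groups was not tested. Rps4y2 had an r of 0.025, Rpl21 0.17 and Rps15a 0.27. Rps4y2 is a member of the Rps4 family whose symbol names the Y chromosome, although the reference table places it on chromosome 4, and it was dim (7.73) with the largest within-group SD of the members (0.23). Among themselves these 4 genes had positive r values, from 0.35 for Rpl13a with Rps4y2 to 0.69 for Rpl21 with Rps15a, a grouping seen only after the values were known. Rps29, a small zinc-binding protein, had an r of 0.34 over all animals and 0.68 without water animal 15.

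**Figure D4:**
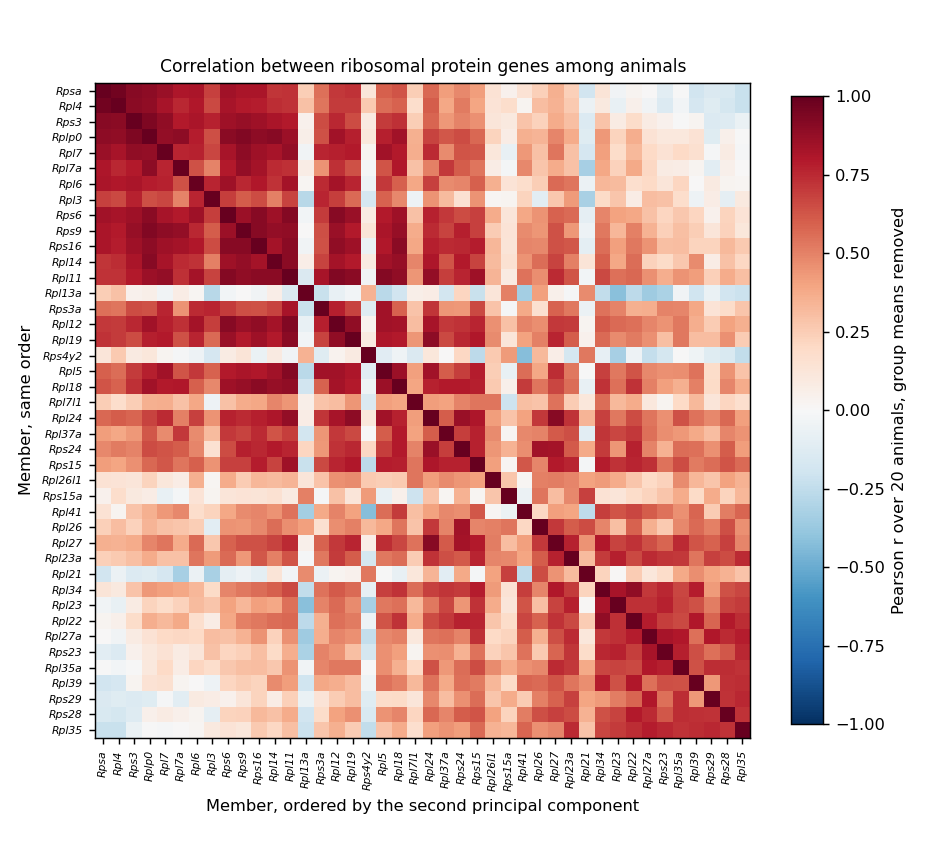
Each cell is the Pearson r of a pair of members over 20 animals after removing group means, with both axes ordered by the second principal component. Red covers most of the plot, the corner between Rpsa or Rpl4 and Rps28 or Rpl35 is pale or blue, and the rows of Rpl13a, Rps4y2 and Rpl21 are pale.

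The second principal component held 18.7% of the variance and came largely from 1 array: water animal 15 carried 65.4% of it, and without that animal the second component held 10.4%. In water animal 15, Rpsa was 0.57 below the water mean on the log2 scale, at 12.75, while the other water animals were at 13.31 or above. Rplp0 stood at 13.10, Rpl4 at 13.16 and Rps3 at 13.72 in this animal, in each case the lowest of all 20 arrays. At the other end Rps28 was 0.16 above the water mean, Rpl39 0.13 and Rpl35 0.11. In all, 29 members were below and 13 above the mean in this array.

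The members that were low in that array had low numbers in their symbols. Ribosomal proteins were numbered by their migration in gels, so that low numbers mostly stand for larger proteins. Over the 40 members with a number, Spearman's rho between the number and the deviation from the group mean was 0.79 in water animal 15. In the other 19 animals it lay between -0.59 (water animal 21) and 0.33 (water animal 14), and water animal 14 had all members raised, by 0.023 to 0.20. The water mean includes water animal 15, which shifts the deviations of the other water animals the opposite way. Their values are therefore not independent of that animal. In ethanol animals, whose mean does not hold it, rho lay between -0.32 and 0.21. Genes are not independent replicates, and this relation was looked for after the values were seen. Water animal 15 also had the highest 3' to 5' log2 ratio of the beta-actin and GAPDH control probe sets, a measure of RNA integrity and labelling, at 1.94 against 1.15 to 1.73 in the others. Across the 20 animals the ratio and the rho of number with deviation had an r of 0.47 and a rho of 0.23, and the r was 0.087 without water animals 13 and 15. These values use the same deviations from a water mean that includes water animal 15. The part of RNA integrity in the pattern was not tested.

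**Figure D5:**
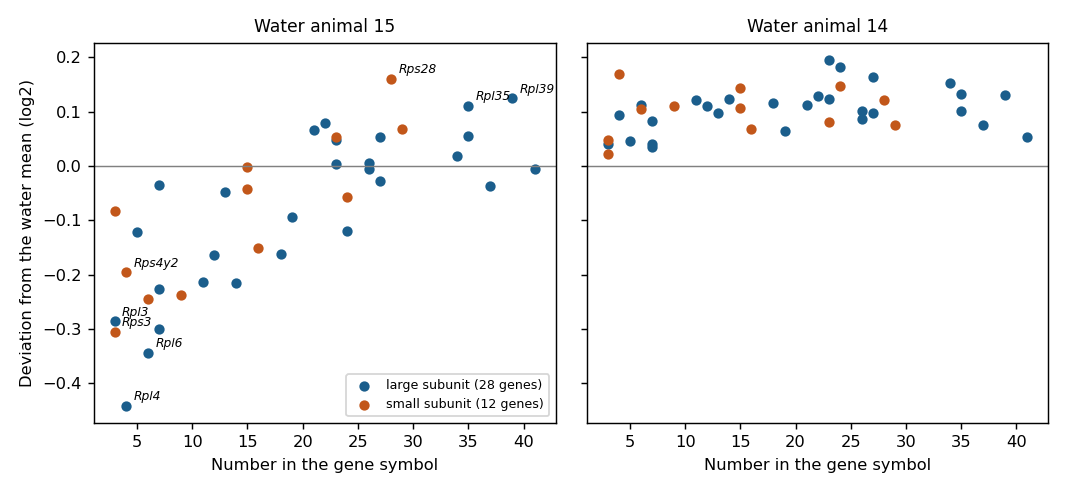
Each point is 1 of 40 members with a number in the symbol (horizontal axis), and the vertical axis is its log2 deviation from the water mean in water animal 15 (left) and water animal 14 (right), coloured by subunit. In animal 15 the points climb from -0.44 for Rpl4 to 0.16 for Rps28 (rho 0.79), and in animal 14 all are above 0 (rho 0.33).

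The members varied less among animals than most probe sets. Their median within-group SD was 0.081, against 0.14 for all tested probe sets and 0.11 for the other genes above log2 12. Those other genes were not matched to the members in level, and 33 members had a mean above log2 13.56. The part of signal level in the spread was not tested. The largest SDs after Rps4y2 were those of Rpsa (0.16), Rplp0 (0.14), Rpl4 (0.13) and Rpl6 (0.12), all 4 of them lowest in water animal 15. The SD was smaller in ethanol than in water animals in 33 of 42 members (78.6%), against 58.6% of all probe sets and 67.7% of other genes above log2 12. The differences in spread were not tested.

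Genes outside the members that followed their mean most closely were Spcs1, a subunit of the signal peptidase (r = 0.94 over 20 animals), Iah1 (0.91), Mrps11 of the mitochondrial ribosome (0.90), and Psma2 of the proteasome and Micos13 of the mitochondrial inner membrane (0.89 each). Dnlz, Atp6v1g1 of the vacuolar proton pump, Ssr4 of the translocon, Emc7 of the endoplasmic reticulum membrane complex and Cnpy2 followed at 0.86 to 0.88. Without the 3 arrays that correlated least, the r of these 10 genes lay between 0.81 and 0.92. Their own ethanol differences ran from -0.085 for Atp6v1g1 to 0.058 for Dnlz, with limma adjusted p-values of 0.472 and above. The lowest r values were those of Magi3 (-0.84), Nrip3 (-0.81), Nrcam (-0.81), Fbxw7 (-0.80) and Tmem68 (-0.79).

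The members' mean was also set beside 13 measures of the arrays and of cell type markers, over 20 animals with group means removed. Its largest r was -0.58 (Spearman's rho -0.50) with the markers of cortical and basolateral excitatory neurons, and -0.49 without ethanol animal 3 and water animal 20. The r with microglia markers was 0.49 (rho 0.38), and 0.22 without water animals 15 and 18. It was 0.35 with myelin markers, and 0.22 without ethanol animal 3 and water animal 18. With pan-neuronal markers it was -0.36, and -0.16 without ethanol animal 9 and water animal 18. With central amygdala markers it was 0.33, and 0.41 without water animals 13 and 16. The r with the 3' to 5' ratio was -0.094, and 0.39 without water animals 13 and 15. With the array median it was 0.28, and -0.0002 without ethanol animal 7 and water animal 20. The part of dissection and cell makeup in the members' variation was not tested, and in bulk tissue fewer cells of a type cannot be told from less RNA per cell.

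In some marker lists the means leaned to 1 side, although limma called 0 of their genes and the level ranges of the groups overlapped. Of the myelin genes, 13 of 13 tested had a lower mean with ethanol, where 42.2% of all probe sets did, and 6 had an unadjusted p under 0.05 (12.8% of all probe sets did), with mean levels of 11.10 to 12.69 in ethanol and 11.85 to 13.10 in water animals. Of the meningeal genes 8 of the 8 above the filter, of 10 on the array, were lower (7.84 to 9.93 against 7.93 to 10.96), and of the choroid plexus genes 4 of the 4 above the filter, of 8 on the array (6.43 to 11.46 against 6.86 to 11.88). Of the pan-neuronal genes 14 of 14 were higher (12.40 to 12.78 against 12.20 to 12.62). Of the astrocyte genes 8 of 9 were lower, of the central amygdala genes 12 of 13 were higher and of the striatal genes 10 of 11 were higher. The genes of a list were measured in the same animals and dissections, so they are not separate observations. Once the myelin score entered the fit, the members' median difference was -0.0076, against -0.022 without it. In that fit 24 of 42 members were lower (57.1%, against 45.4% of all probe sets), and the median over all probe sets was 0.0093. The myelin score itself differed by -0.39 between ethanol and water animals, so the fit also takes up part of the ethanol contrast.

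Other genes of translation did not pass the test either. In 7 lists written from textbook knowledge, limma called 0 genes at an adjusted p under 0.05, and at an unadjusted p under 0.05 it found 8 higher and 5 lower among 188 tested, 6.91% against 12.8% of all probe sets. Rack1, a small subunit protein with another symbol, lay at 13.15 in both groups, a difference of -0.0001 (SE 0.039), and its r with the members' mean was 0.72. Over the 10117 genes outside the members, the median r with that mean was 0.13 (quartiles -0.13 and 0.36). The 11 elongation factor and TOP-type genes had a median difference of 0.0054 and a median r of 0.52 with the members' mean, 10 of them positive. Eef1a1, which delivers aminoacyl-tRNA, differed by 0.053 (SE 0.043). Of the 26 initiation factors 19 were higher with ethanol and 26.9% were lower. The lower share was 42.2% of all probe sets and 32.2% of the other genes above log2 12. The smallest limma p-values were those of the cap-binding protein Eif4e (0.088, SE 0.039, limma adjusted p = 0.361) and of Eif6. Eif6, which keeps free large subunits apart from small ones, differed by 0.11 (SE 0.051, limma adjusted p = 0.383). The median r of the initiation factors with the members' mean was 0.43.

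The makers and regulators of ribosomes had lower median r values with the members' mean than the initiation factors. The median over genes outside the members was 0.13. In the 38 genes of ribosome biogenesis and RNA polymerase I, 22 were higher and 16 lower, with a median r of 0.29. The lower share was 42.1%, against 42.2% of all probe sets. Polr1b, a core subunit of that polymerase, was 8.88 in ethanol and 8.67 in water animals on average, a difference of 0.21 (SE 0.058, limma adjusted p = 0.239). The 24 genes of mTORC1 and S6 kinase signalling had a median r of 0.079. Eef2k, the kinase that slows elongation, did not pass with a difference of -0.25 (SE 0.091, limma adjusted p = 0.313), and Eif4ebp2, the repressor of Eif4e that prevails in brain, differed by -0.089 (SE 0.039, limma adjusted p = 0.355). In the 15 tested genes of the integrated stress response and ribosome quality control the median r was 0.24; Asns, which makes asparagine, differed by 0.15 (SE 0.057) and Mdm2 by -0.10 (SE 0.057). The 73 mitochondrial ribosomal protein genes had a median r of 0.51 with the cytosolic members' mean, and 69 were positive. Mrpl48 differed by -0.13 (SE 0.037, limma adjusted p = 0.239) and Mrpl17 by 0.11 (SE 0.043, limma adjusted p = 0.326).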

How the data were processed

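RNA was taken with Trizol and an RNeasy column and labelled as biotinylated cRNA with a 3' IVT kit, per the labels' protocols. The authors deposited log2 values per probe set and array, made with RMA per the submitters' processing notes. The RMA version was not given. The log2 base was read from the values. Of 31099 probe sets 57 were controls. The filter kept 18625 probe sets with a mean beyond the 40th percentile of all non-control ones (log2 7.14), which name 10159 genes.

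The difference between ethanol and water came from limma 3.58.1 in R 4.3.3 (lmFit and eBayes, two-sided, Benjamini-Hochberg over all tested probe sets, threshold 0.05). The fit was tested on simulated data, drawn independently for each probe set. With the members' own spread, a change of 0.1 in all 42 members was called in 0 of them. A change of 0.15 was called in 1 and a change of 0.2 in 24. The observed differences, from -0.098 to 0.074, lay within the sizes that the simulation did not call. Correlations used log2 values minus group means, in Python 3.11.15, and carry no p-value. Where the labels say nothing of separate litters or extractions, p-values measure the spread between these 10 animals per group.

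Named members were those past the threshold, the 6 with the smallest p in each direction, the 5 with the highest and the 5 with the lowest r with the other members, the 5 with the largest SD, and a fixed list that holds Rplp0, Rpsa, Rps6, Rpl5, Rpl11, Rpl13a and Rpl22; outside them the 10 genes with the highest and 5 with the lowest r, and 2 per translation list. Of the symbols that match the naming rule in part, 11 were left out, 7 of them kinases. The members, lists and named genes were chosen with earlier results of these data known. The alternatives tried were other filters, array centring, cyclic loess, array weights, covariates, the run as a block, other probe sets and leaving out each animal. Planned features of the proteins were not analysed here.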

Additional observations from a re-analysis of the deposited data

Results flagged for a closer look

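In groups of 10, the highest or lowest animal was compared with the gap to its nearest neighbour (Dixon's criterion), which chance meets in about 1 in 20 groups. Of 50 groups of named members and of their mean, 8 met it, 7 of them through water animal 15. Some members were named for their large SD, Rpsa, Rplp0, Rpl4 and Rpl6 among them. The rate of 1 in 20 is therefore no benchmark for this count. That animal was lowest among water animals in Rpsa (12.75, the next at 13.31), Rpl4 (13.16, the next at 13.54), Rpl6 (13.62, the next at 13.90), Rps3 (13.72, the next at 13.97), Rpl3 (14.30, the next at 14.54), Rplp0 (13.10, the next at 13.45) and Rps6 (14.04, the next at 14.20). These 7 genes vary together, so their flags are not separate events. Water animal 14 was highest in Rps15a, at 14.63 with the next at 14.52.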

How the results depend on the processing

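The count of members that limma called was 0 in all 33 alternatives, with 0 to 4 at an unadjusted p under 0.05. No paired analysis was possible because no animal number occurs in both groups. The count over all probe sets, 4 as reported, was 2 with the 60th percentile filter, 23 with array quality weights, 0 with a covariate for myelin (2263 without adjustment), 1 with the striatal and cortical scores and 0 with 1 probe set per gene (1278 unadjusted). It was 1 to 8 when each animal was left out in turn, moved most by ethanol animals 3 and 6 and water animals 14, 16, 17, 18 and 20. The members' median difference kept its sign, from -0.047 (cyclic loess) to -0.0076 (myelin score), and from -0.029 to -0.0082 with 1 animal left out. Loess gave 36 of 42 members lower (85.7%, against 49.3% of all probe sets), with a median over all probe sets of 0.0014. The difference in the members' mean ran from -0.043 to -0.00059, and from -0.029 to -0.0061 with 1 animal left out. The median pairwise r ran from 0.39 (no filter) to 0.58, and from 0.40 to 0.58 with 1 animal left out.

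Of 262 values of named members under the other alternatives, 18 changed sign, all of small differences. With loess these were Rpl11 (-0.026), Rpl19 (-0.025) and Rps6 (-0.019); with the 3' to 5' ratio Rpl11 (-0.0027) and Rpsa (-0.012); with the striatal and cortical scores Rpl11 (-0.0031) and Rps4y2 (0.012); with array weights Rps29 (0.0051) and Rps6 (-0.0059). With the myelin score they were Rpl24 (0.017), Rpl5 (0.0080), Rplp0 (0.035), Rps16 (0.013) and Rps4y2 (0.062). Without the 3 arrays that correlated least, chosen after seeing the data, they were Rpl11 (-0.025), Rpl19 (-0.010), Rps6 (-0.019) and Rpsa (-0.021). Leaving out 1 animal gave -0.022 to 0.015 for Rpl11, -0.0074 to 0.010 for Rpl19, -0.031 to 0.0080 for Rpl24, -0.028 to 0.0016 for Rpl5, -0.024 to 0.0054 for Rps16, -0.0030 to 0.043 for Rps3, -0.061 to 0.029 for Rps4y2, -0.019 to 0.020 for Rps6 and -0.027 to 0.054 for Rpsa. Values of the other named members that kept their sign but moved by over 1.5 times were Rps24 (-0.046) and Rpl6 (0.029) with array weights, and Rps24 (-0.031), Rpl18 (-0.030) and Rpl4 (0.11) with the myelin score, among others. The cause of these changes was not tested. The number of arrays limits the precision, and 4 members below the filter gave no test.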
